A study of Mus musculus with 15 samples.

Results

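The genes described here encode enzymes that make leukotrienes, prostaglandins and platelet-activating factor (PAF), lipid mediators of inflammation. They form a set of 10 named genes (Alox5, Alox5ap, Lta4h, Ltc4s, Mgst2, Lpcat2, Ptgs1, Ptgs2, Hpgds and Pla2g4a) chosen by the mutant against control differences of Alox5, Lpcat2 and Mgst2 in these same arrays. For these 3 genes the differences are therefore a description and no test is given. A gene was read from the probe set that carries its symbol alone, and 9 of the 10 genes had such a probe set, each exactly 1, among 19937 genes measured. Expression of Ptgs1 was not analysed here. In mutant GMPs Alox5 and Lpcat2 were higher and Mgst2 was lower than in control GMPs, and Hpgds passed the test as higher. The other 5 measured genes did not pass it in any mutant comparison.

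The series profiled bone marrow progenitors of female C57BL/6 mice before leukaemia, with mutations in Cebpa (which encodes the myeloid transcription factor C/EBPα), on Affymetrix Mouse Gene 1.0 ST arrays. All groups carried Mx1Cre, a Cre recombinase under an interferon-inducible promoter whose activity is not limited to progenitors, and were taken 3 weeks after the conditional knockout. The age of the mice is not given in the labels. PreGMs (pre-granulocyte-macrophage progenitors) and the more mature GMPs (granulocyte-macrophage progenitors) were sorted as lineage-negative, cKit-positive cells without Sca1, CD150 and CD41. GMPs carried FcgRII, while preGMs lacked it and Endoglin. There were 5 groups of 3 arrays: preGM fl/p30 (cebpa fl/p30; Mx1Cre), preGM +/+ (cebpa +/+, spelled Mx1Ce in its label), GMP fl/p30 (cebpa fl/p30; Mx1Cre), GMP fl/BRM2 (cebpa fl/BRM2; Mx1Cre) and GMP fl/+ (cebpa fl/+; Mx1Cre). After Cre acts, a floxed (fl) allele is lost, so that the p30 allele, which makes the short C/EBPα isoform, or the BRM2 allele, with a mutated basic region, remains. The GMP control thus keeps 1 normal allele and the preGM control both, and stage and control genotype cannot be told apart. The numbers in the titles read as mouse numbers, and GMP fl/p30 and preGM fl/p30 came from the same 3 animals (replicates 1, 2 and 3 in both groups). That arrays of a group came from separate animals is not stated outright, so p-values measure the spread between these samples.

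Cytosolic phospholipase A2, encoded by Pla2g4a, releases arachidonic acid from membrane phospholipids. Arachidonate 5-lipoxygenase (Alox5), helped by the activating protein FLAP (Alox5ap), turns it into leukotriene A4, which Lta4h hydrolyses to the neutrophil attractant leukotriene B4 and which Ltc4s or Mgst2 conjugates with glutathione to leukotriene C4. The cyclooxygenases (Ptgs1, Ptgs2) open the prostaglandin branch, from which Hpgds makes prostaglandin D2, a major mast cell product. Lpcat2 reacylates lysophospholipids and can acetylate lyso-PAF to PAF. In marrow, these enzymes are known mostly from granulocytes, monocytes, mast cells and eosinophils.

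The promoter windows of 3 genes that were higher in mutant GMPs and of Ptgs2, which did not pass the test, are shown because the mutated factor binds DNA. The sequences are RefSeq's, build GRCm38.p6, each 300 bases from 250 before to 50 after the annotated start, written 5′ to 3′ along the gene. They lie at chr6:116461129-116461428, minus strand (Alox5), chr8:92855083-92855382, plus strand (Lpcat2), chr6:65144681-65144980, minus strand (Hpgds), and chr1:150099781-150100080, plus strand (Ptgs2). Capitals mark matches to 5 motifs searched on both strands: C/EBP (TTGCNNAA), PU.1 (GAGGAAGT), GATA factors (AGATAA), E2F (TTTCCCGC) and the GC box (GGGCGG).
Alox5: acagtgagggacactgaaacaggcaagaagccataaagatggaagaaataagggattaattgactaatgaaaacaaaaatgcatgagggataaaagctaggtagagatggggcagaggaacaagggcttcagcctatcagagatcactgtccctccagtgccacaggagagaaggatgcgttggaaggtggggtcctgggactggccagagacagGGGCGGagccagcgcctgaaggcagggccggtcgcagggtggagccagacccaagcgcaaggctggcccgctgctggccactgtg
Lpcat2: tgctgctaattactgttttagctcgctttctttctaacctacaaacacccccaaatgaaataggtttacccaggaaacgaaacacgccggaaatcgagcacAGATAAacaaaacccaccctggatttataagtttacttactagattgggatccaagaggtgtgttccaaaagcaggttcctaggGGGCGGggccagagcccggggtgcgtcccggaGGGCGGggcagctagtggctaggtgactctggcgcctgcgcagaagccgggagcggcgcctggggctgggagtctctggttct
Hpgds: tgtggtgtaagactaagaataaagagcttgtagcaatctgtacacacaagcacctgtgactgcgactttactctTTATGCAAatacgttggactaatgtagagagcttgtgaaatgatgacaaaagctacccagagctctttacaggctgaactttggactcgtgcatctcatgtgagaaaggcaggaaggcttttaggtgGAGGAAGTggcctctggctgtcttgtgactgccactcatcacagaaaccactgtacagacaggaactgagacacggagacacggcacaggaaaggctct
Ptgs2: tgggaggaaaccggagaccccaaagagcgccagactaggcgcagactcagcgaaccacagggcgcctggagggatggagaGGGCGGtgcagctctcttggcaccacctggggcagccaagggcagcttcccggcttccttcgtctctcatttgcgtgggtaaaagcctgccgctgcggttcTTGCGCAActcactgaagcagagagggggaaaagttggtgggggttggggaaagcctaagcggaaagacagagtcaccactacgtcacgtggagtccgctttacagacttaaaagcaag

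Ptgs2 held the C/EBP motif at position -69 from the start site as TTGCGCAA, which reads the same on both strands, and a GC box at -170. Hpgds held a C/EBP match on the opposite strand, printed as TTATGCAA, at -176 and the PU.1 motif at -49. Alox5 held only a GC box, at -35, and Lpcat2 a GATA match at -149 and GC boxes at -65 and -33. The windows of Mgst2, Lta4h, Ltc4s and Pla2g4a held none of the 5 motifs, and that of Ptgs1, whose expression was not analysed, held the PU.1 motif at -24. Of 32851 windows of this length in the table, 10.8% held the C/EBP motif, 3.2% PU.1, 11.2% GATA, 1.07% E2F and 35.7% a GC box. Matches are letters in these windows and are no measure of binding. Of the 10 genes, 9 had a window. Alox5ap is named only.

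Values are deposited log2 expression levels, and the array medians lay between 6.03 and 6.23. Levels below these medians are low and have no detection call, so no fold is given against them. Levels of different probe sets are not compared with each other. Of the genes behind the gates, Fcgr3, an Fcγ receptor gene, had group means of 9.30 (fl/p30), 9.39 (fl/BRM2) and 9.30 (fl/+) in GMPs, against 6.95 in preGM fl/p30 and 6.32 in preGM +/+. Fcgr2b, which encodes FcγRIIb, did not separate the mutant GMPs from the control preGMs, with arrays from 7.0 to 8.32 in GMP fl/p30, 7.23 to 8.04 in GMP fl/BRM2 and 8.38 to 9.0 in GMP fl/+, against 6.44 to 6.91 in preGM fl/p30 and 6.77 to 7.45 in preGM +/+. Itga2b, which encodes the CD41 gated against, rose in GMP fl/p30, with group means of 7.95 in GMP fl/p30 and 7.89 in GMP fl/BRM2 against 6.90 in GMP fl/+. Cebpa itself passed the test, with GMP fl/p30 above GMP fl/+ (log2 difference 0.69 ± 0.18, SE, limma adjusted p = 0.0367), although GMP fl/p30 replicate 1 (8.68) lay below GMP fl/+ replicate 1 (8.70). It did not pass with only the compared groups fitted (adjusted p = 0.273), nor once any array of preGM +/+, replicate 3 of preGM fl/p30, or replicate 2 or 3 of either of these GMP groups was left out (adjusted p up to 0.15). Whether this probe set falls inside the floxed stretch is unknown, so it is no check of genotype. The root mean square of the SDs within a group ran from 0.165 in preGM +/+ to 0.319 in GMP fl/+. In bulk arrays, fewer cells of a type and less RNA per cell cannot be told apart.

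**Figure D1:**
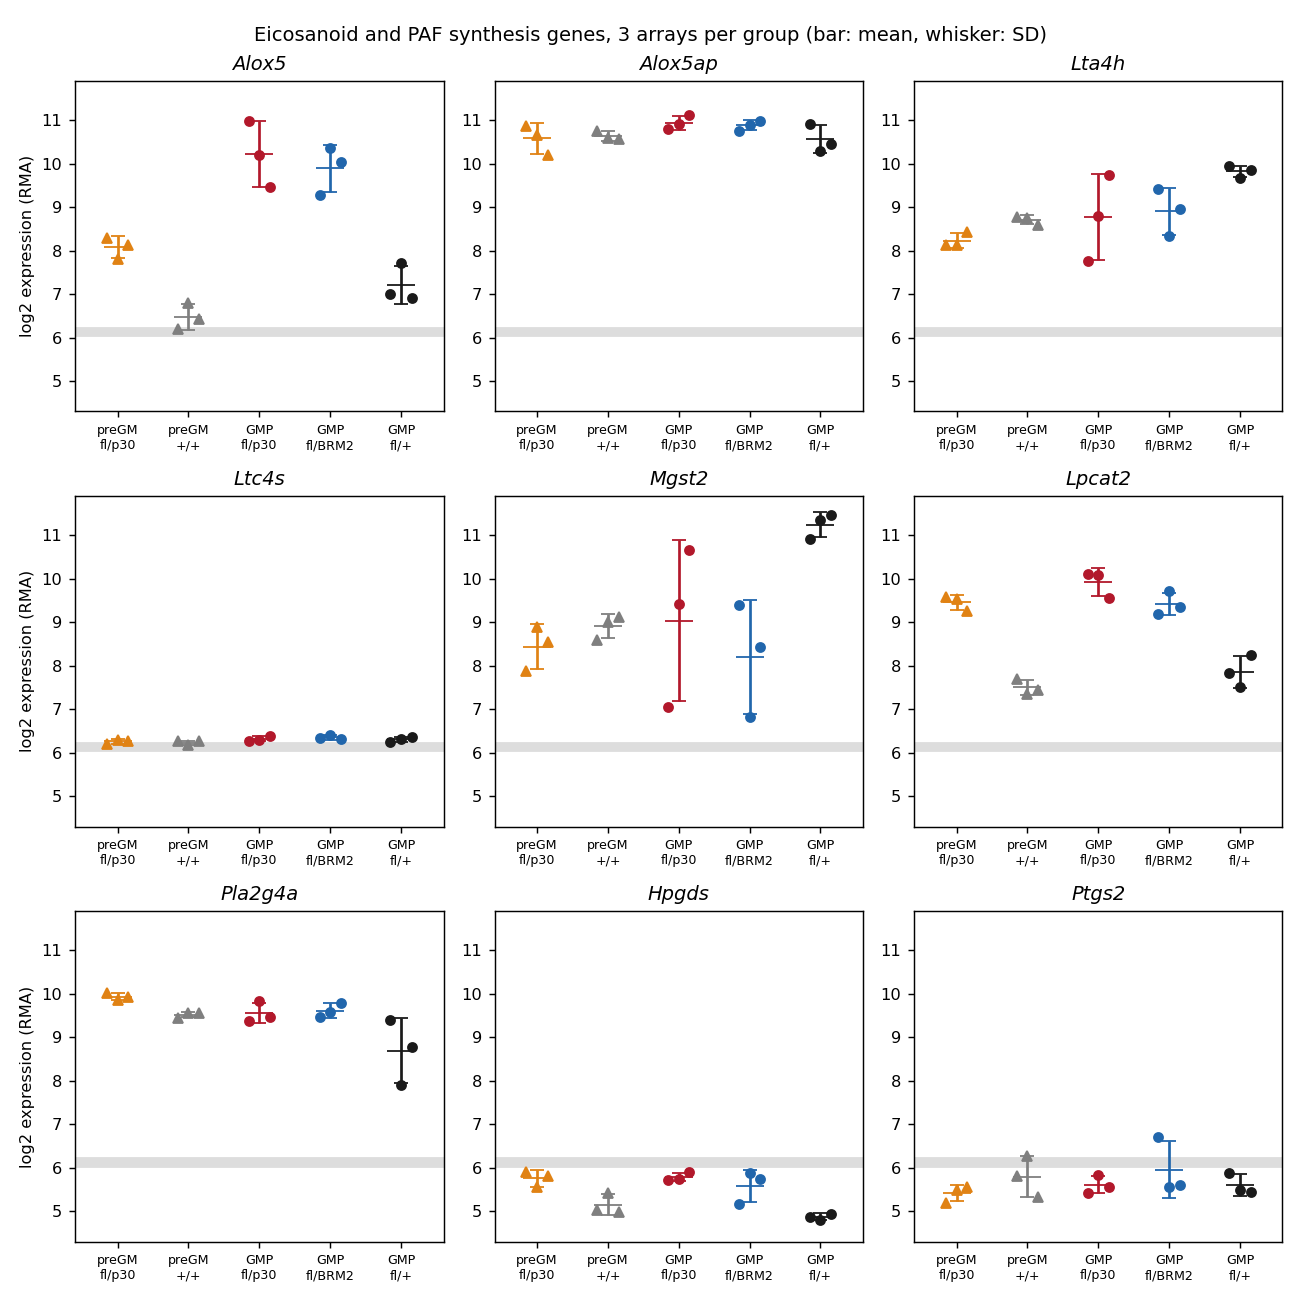
Log2 expression of the 9 measured genes on each of the 15 arrays, 3 per group (points), with the group mean (bar) and SD (whisker). The grey band marks the range of the array medians, 6.03 to 6.23. Alox5 and Lpcat2 sit higher and Mgst2 lower in the mutant GMPs than in GMP fl/+, and Hpgds and Ptgs2 lie near or below the band.

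Alox5, the enzyme that commits arachidonate to leukotrienes, had the largest mutant difference of the 9 genes in GMP fl/p30. Its levels were 10.98, 10.21 and 9.46 in GMP fl/p30, 9.29, 10.35 and 10.04 in GMP fl/BRM2, and 7.01, 7.71 and 6.92 in GMP fl/+. Every mutant GMP array lay above every control GMP array, as for 9.16% of all genes with p30 and 6.74% with BRM2. The mean was 8.04-fold above that of GMP fl/+ in GMP fl/p30 (log2 difference 3.01 ± 0.35, SE, 95% interval 2.27 to 3.75) and 6.40-fold above it in GMP fl/BRM2 (2.68 ± 0.35, 1.94 to 3.42). Both mutants were set against the same control arrays. In preGMs the levels were 8.30, 7.80 and 8.13 with fl/p30 and 6.20, 6.79 and 6.42 with +/+, again without overlap, as for 12.4% of all genes. The difference was 3.05-fold (1.61 ± 0.35). Leaving out any replicate kept these differences between 2.63 and 3.39, 2.45 and 2.98, and 1.47 and 1.77.

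Alox5ap, whose product presents arachidonate to the lipoxygenase, was far above the array medians in every group and did not pass the test in any comparison. Its levels were 10.79, 10.92 and 11.11 in GMP fl/p30, 10.76, 10.90 and 10.99 in GMP fl/BRM2, and 10.92, 10.30 and 10.46 in GMP fl/+. GMP fl/+ replicate 1 lay within the range of both mutants. The differences were 0.38 ± 0.18 for p30 (adjusted p = 0.253) and 0.32 ± 0.18 for BRM2 (adjusted p = 0.441). Without GMP fl/+ replicate 1, the control array with the high level, the p30 difference was 0.56 and passed the test (adjusted p = 0.0414), and without replicate 2 it was 0.25 and did not pass. In preGMs the levels ran from 10.20 to 10.87 with fl/p30 and from 10.57 to 10.76 with +/+, a difference of -0.06 ± 0.18 (adjusted p = 0.92).

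Of the 3 enzymes that use leukotriene A4, Mgst2 and Lta4h had lower means in the mutants than in their controls. Mgst2 is a microsomal glutathione transferase with leukotriene C4 synthase activity. Its levels were 7.04, 9.42 and 10.67 in GMP fl/p30, 9.40, 6.81 and 8.42 in GMP fl/BRM2, and 10.91, 11.36 and 11.46 in GMP fl/+. The mutant arrays all lay below the control arrays, as for 8.27% of all genes with p30 and 8.51% with BRM2. They spread widely, with SDs of 1.85 for p30 and 1.31 for BRM2 against 0.29 in the control. The mean was 4.59-fold lower in GMP fl/p30 (log2 difference -2.20 ± 0.72, 95% interval -3.75 to -0.65) and 8.17-fold lower in GMP fl/BRM2 (-3.03 ± 0.72, -4.58 to -1.48). The p30 difference was -3.01 without GMP fl/p30 replicate 3 and -1.20 without replicate 1, and the BRM2 difference was -3.62 without GMP fl/BRM2 replicate 1 and -2.33 without replicate 2. In preGMs the levels overlapped, at 7.89, 8.89 and 8.55 with fl/p30 and 8.60, 9.01 and 9.12 with +/+, and differed by -0.47 ± 0.72 (-0.19 without preGM fl/p30 replicate 1).

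Lta4h, the leukotriene A4 hydrolase, had levels of 7.76, 8.79 and 9.74 in GMP fl/p30, 9.42, 8.33 and 8.95 in GMP fl/BRM2, and 9.94, 9.68 and 9.85 in GMP fl/+. The BRM2 arrays lay below all control arrays, and GMP fl/p30 replicate 3 lay within the control range. The differences of -1.05 ± 0.36 for p30 (adjusted p = 0.11) and -0.92 ± 0.36 for BRM2 (adjusted p = 0.237) did not pass the test. The p30 difference was -1.54 and passed without GMP fl/p30 replicate 3 (adjusted p = 0.0053), and it was -0.55 without replicate 1. In preGMs the 3 fl/p30 arrays, at 8.14, 8.12 and 8.43, lay below the +/+ arrays, at 8.78, 8.75 and 8.60, a difference of -0.48 ± 0.36 (adjusted p = 0.591).

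Ltc4s, the leukotriene C4 synthase of mast cells and eosinophils, lay close to the array medians throughout, between 6.18 and 6.40 over the 15 arrays. Its differences from control were 0.01 ± 0.09 with p30 and 0.04 ± 0.09 with BRM2 in GMPs, and 0.03 ± 0.09 in preGM fl/p30 (adjusted p = 0.98, 0.91 and 0.903). The 95% intervals were -0.18 to 0.19, -0.15 to 0.22 and -0.15 to 0.22.

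In the prostaglandin branch, Hpgds rose in both mutant GMPs, at levels below the array medians. Its levels were 5.71, 5.74 and 5.91 in GMP fl/p30, 5.17, 5.87 and 5.74 in GMP fl/BRM2, and 4.87, 4.79 and 4.94 in GMP fl/+. All mutant arrays lay above all control arrays. The log2 differences were 0.92 ± 0.17 in GMP fl/p30 (adjusted p = 0.00521) and 0.73 ± 0.17 in GMP fl/BRM2 (adjusted p = 0.0366), by limma over all genes. In preGMs it had 5.91, 5.55 and 5.82 with fl/p30 and 5.04, 5.43 and 4.99 with +/+, groups that did not overlap, yet the difference of 0.61 ± 0.17 did not pass (adjusted p = 0.106).

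The p30 call of Hpgds held without each of the 15 arrays in turn (adjusted p up to 0.0226). The BRM2 call was lost in 8 of these 15 fits (highest adjusted p = 0.224). The arrays left out in them were replicates 1 and 3 of preGM +/+, replicate 3 of preGM fl/p30, replicates 2 and 3 of GMP fl/+, the same numbers of GMP fl/BRM2, and replicate 2 of GMP fl/p30. It was also lost when only the compared groups were fitted (adjusted p = 0.197) and with array medians set equal (adjusted p = 0.0505). The preGM difference passed with only the compared groups fitted (adjusted p = 0.0442) and without GMP fl/BRM2 replicate 1 (adjusted p = 0.0412).

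Ptgs2, the inducible cyclooxygenase, was mostly below the array medians. Its levels were 5.43, 5.83 and 5.57 in GMP fl/p30, 6.72, 5.55 and 5.60 in GMP fl/BRM2, and 5.89, 5.48 and 5.45 in GMP fl/+. Of these 9 GMP arrays, GMP fl/BRM2 replicate 1 stood above the rest. The differences were 0.01 ± 0.28 for p30 and 0.35 ± 0.28 for BRM2 (adjusted p = 0.992 and 0.647), and the BRM2 difference was -0.03 without that array. In preGMs the levels were 5.20, 5.50 and 5.57 with fl/p30 and 5.81, 6.27 and 5.32 with +/+, a difference of -0.38 ± 0.28 (adjusted p = 0.592).

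Pla2g4a, upstream of every branch, had levels of 9.38, 9.83 and 9.47 in GMP fl/p30, 9.46, 9.59 and 9.79 in GMP fl/BRM2, and 9.39, 7.90 and 8.77 in GMP fl/+. The control arrays spread more (SD 0.75) than the mutant arrays (SD 0.24 in GMP fl/p30 and 0.17 in GMP fl/BRM2), and GMP fl/+ replicate 1 lay beside the mutants. The differences of 0.87 ± 0.26 for p30 (adjusted p = 0.0625) and 0.92 ± 0.26 for BRM2 (adjusted p = 0.0803) did not pass. Without GMP fl/+ replicate 1 they were 1.22 (adjusted p = 0.00157) and 1.27 (adjusted p = 0.00224). Without GMP fl/+ replicate 2 they were 0.48 and 0.53. The p30 difference also passed with the filter on dim probe sets (adjusted p = 0.0459). In preGMs the levels of 10.02, 9.87 and 9.94 with fl/p30 lay above those of 9.45, 9.56 and 9.56 with +/+, a difference of 0.42 ± 0.26 (adjusted p = 0.498) that passed with only the compared groups fitted (adjusted p = 0.0461).

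Lpcat2, the acyltransferase that can make PAF, was higher in the mutants at both stages, with SDs within groups of 0.17 to 0.37. Its levels were 10.12, 10.09 and 9.55 in GMP fl/p30, 9.20, 9.71 and 9.34 in GMP fl/BRM2, and 7.84, 7.51 and 8.25 in GMP fl/+. In preGMs they were 9.57, 9.54 and 9.26 with fl/p30 and 7.69, 7.36 and 7.44 with +/+. Mutant and control arrays did not overlap at either stage, as for 9.16% of all genes with p30 higher in GMPs, 6.74% with BRM2 and 12.4% with p30 in preGMs. The mean was 4.15-fold higher in GMP fl/p30 (log2 difference 2.05 ± 0.20, 95% interval 1.62 to 2.49), 2.94-fold higher in GMP fl/BRM2 (1.55 ± 0.20, 1.12 to 1.99) and 3.89-fold higher in preGM fl/p30 (1.96 ± 0.20, 1.53 to 2.39). Leaving out any replicate kept them between 1.88 and 2.24, 1.38 and 1.74, and 1.89 and 2.06.

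**Figure D2:**
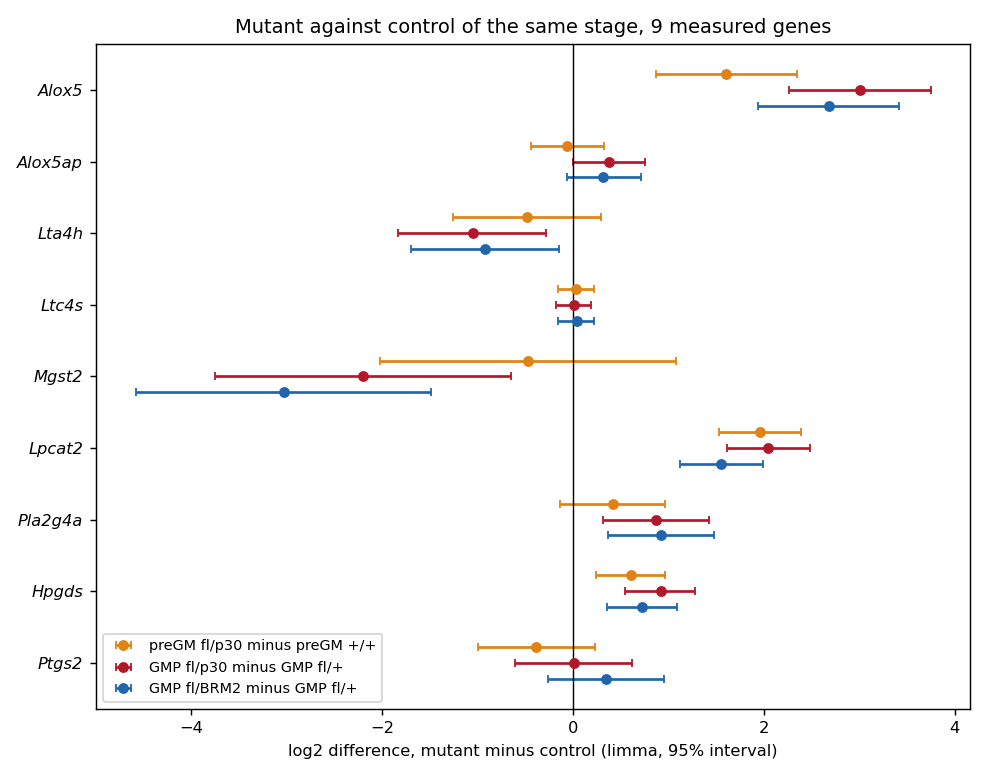
Log2 difference of mutant minus control of the same stage for the 9 measured genes (points) with the 95% interval of the limma fit (bars). Alox5 and Lpcat2 lie right of 0 in all 3 comparisons, and Ltc4s lies at 0 with the narrowest intervals. The points of Mgst2 lie left of 0 with the widest intervals, and its interval in preGMs (-2.02 to 1.08) includes 0.

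Of the 6 measured genes whose changes did not choose the set, 1 (Hpgds) was called higher in GMP fl/p30 against GMP fl/+ and 0 lower, where 4.69% of all genes were called higher, 1.37% lower and 6.06% in all. With the BRM2 allele it was also 1 higher and 0 lower, against 1.89%, 0.642% and 2.53% of all genes. In preGM fl/p30 it was 0 of 6, against 0.647% of all genes called higher, 1.03% lower and 1.68% in all. There 1 of the 6 had an unadjusted p under 0.05, a threshold at which the share of all genes is not given. Their median difference was 0.19 for p30 and 0.34 for BRM2 in GMPs and -0.01 for p30 in preGMs, beside medians over all genes of -0.04, -0.02 and 0.03. The arrays did not overlap, with the mutant higher, for 1 of the 6 in GMP fl/p30, 2 with BRM2 and 2 in preGM fl/p30, as for 9.16%, 6.74% and 12.4% of all genes. With the mutant lower they did not overlap for 0, 1 and 1 of the 6, as for 8.27%, 8.51% and 12.8% of all genes.

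The wide spread of Mgst2 in mutant GMPs was shared by other genes. Within GMP fl/p30 and within GMP fl/BRM2, the array with the lowest Mgst2 also had the lowest Lta4h and the highest Alox5, and the array with the highest Mgst2 had the highest Lta4h and the lowest Alox5. These arrays were replicates 1 and 3 of GMP fl/p30 and replicates 2 and 1 of GMP fl/BRM2. In GMP fl/+ the array with the lowest Mgst2 (replicate 1) had the highest Lta4h. Cell type marker lists differed between the same arrays. The mean level of 11 secondary granule and neutrophil genes was 5.80, 6.11 and 7.27 in GMP fl/p30, 7.23, 6.10 and 6.50 in GMP fl/BRM2, and 8.15, 7.70 and 7.48 in GMP fl/+. It ran in the same order as Mgst2 within each mutant GMP group and in the reverse order within GMP fl/+. The mean of 4 primary granule genes did so too, with 9.48, 10.77 and 11.77 in GMP fl/p30, 11.61, 9.94 and 11.12 in GMP fl/BRM2, and 12.15, 11.73 and 11.69 in GMP fl/+. These orders were not particular to the granule lists. The basophil and eosinophil list also ran in the order of Mgst2 within both mutant GMP groups. Its means were 6.36, 6.76 and 7.36 in GMP fl/p30 and 7.56, 6.96 and 7.02 in GMP fl/BRM2. The mast cell, erythroid, and stroma and endothelium lists ran in the reverse order of Mgst2 within both mutant GMP groups. Of the secondary granule genes, 6 of 11 fell in GMP fl/p30 (Camp, Cd177, Fcnb, Ngp, S100a8 and S100a9) and 2 of 11 in GMP fl/BRM2 (Camp and Fcnb), while 0 of the 4 primary granule genes passed in either. The part of any of these cell types in the Mgst2 and Lta4h differences was not tested.

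Alox5 ran in the order of the mast cell list within both mutant GMP groups and in the reverse order within GMP fl/+. The erythroid and the stroma and endothelium lists also ran in the order of Alox5 within both mutant GMP groups. The erythroid means were 8.30, 7.97 and 7.70 in GMP fl/p30 and 7.56, 8.50 and 8.28 in GMP fl/BRM2. Those of the stroma and endothelium list were 7.15, 7.04 and 6.80 in GMP fl/p30 and 6.78, 7.10 and 6.94 in GMP fl/BRM2. The mean of 8 mast cell genes was 7.85, 7.44 and 7.22 in GMP fl/p30, 7.27, 7.74 and 7.49 in GMP fl/BRM2, and 6.30, 6.24 and 6.62 in GMP fl/+. In preGMs it ran from 6.67 to 6.99 with fl/p30 and from 6.29 to 6.47 with +/+. The genes Cma1 (a chymase), Cpa3 (a mast cell carboxypeptidase) and Slc18a2 (a monoamine transporter) rose in both GMP mutants, 3 of 8, and Cpa3 in preGM fl/p30, 1 of 8. The mast cell protease genes Mcpt4 and Tpsab1 stayed low, with group means of 4.82 and 4.80 in GMP fl/p30, 4.50 and 4.72 in GMP fl/BRM2, and 4.46 and 4.74 in GMP fl/+. Ms4a2 had lower means with p30 than in the controls, 7.36 against 8.02 in GMPs and 6.77 against 7.38 in preGMs. In GMP fl/BRM2 its mean was 9.01. The GMP means in fl/p30, fl/BRM2 and fl/+ were 8.68, 7.58 and 6.89 for Fcer1a and 6.23, 6.02 and 5.80 for Tpsb2. Ms4a2, Fcer1a and Tpsb2 did not pass in a mutant comparison. The basophil and eosinophil list moved otherwise, with 4 of 8 genes lower (Hdc, Mcpt8, Prg2 and Prss34) and 1 higher (Ccr3) in GMP fl/p30, and array means of 6.36 to 7.36 in GMP fl/p30, 6.96 to 7.56 in GMP fl/BRM2 and 7.85 to 8.11 in GMP fl/+. Of the erythroid list, 5 of 8 genes rose in each GMP mutant, as did 2 of 8 of the megakaryocyte and platelet list and 2 of 6 of the stroma and endothelium list. Of the T and NK cell list, 5 of 7 rose in GMP fl/p30 (Ccl5, Cd3g, Cd7, Klrd1 and Lat) and 1 of 7 in GMP fl/BRM2 (Lat), with array means of 6.76 to 6.94 in GMP fl/p30, 6.08 to 6.45 in GMP fl/BRM2 and 5.63 to 5.95 in GMP fl/+. Cd3g and Klrd1 stayed below the array medians in every group, with means of 5.13 and 5.15 in GMP fl/p30 and 4.17 and 4.47 in GMP fl/+. Of the monocyte and dendritic list, 2 of 10 rose and 3 fell in GMP fl/p30, and 1 rose and 2 fell in GMP fl/BRM2. In preGM fl/p30, 6 of these 10 fell (Csf1r, Ctss, F13a1, Flt3, Irf8 and Ms4a6c), with array means of 7.39 to 7.51 in preGM fl/p30 against 8.96 to 9.26 in preGM +/+. There, 3 of the 11 secondary granule genes also fell and 2 of the 7 T and NK cell genes rose. None of 6 B lymphoid genes passed in a mutant comparison. The part of any of these cells in the Alox5, Lpcat2 and Hpgds differences was not tested.

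**Figure D3:**
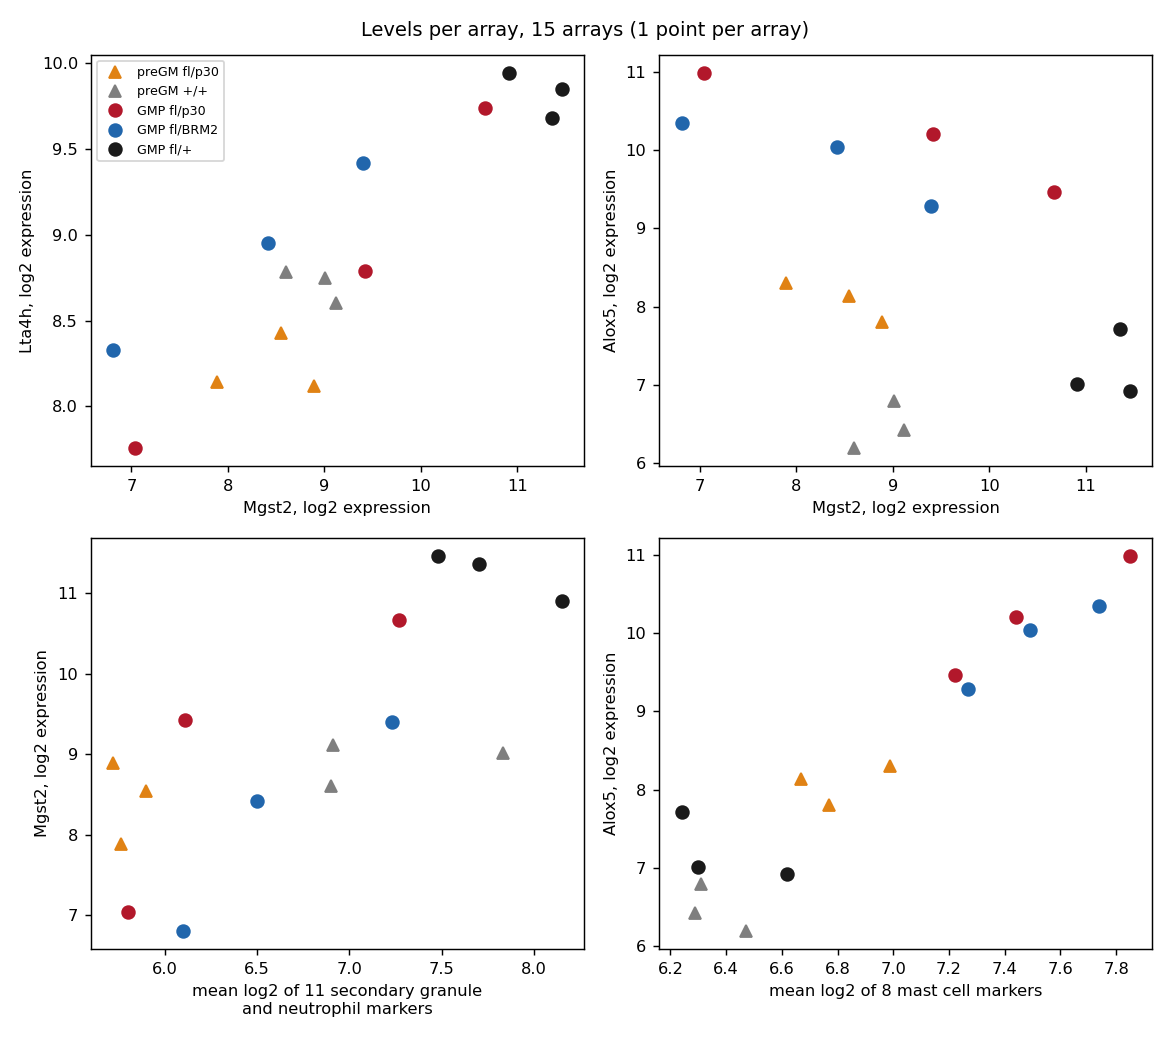
Log2 levels on the 15 arrays, 1 point per array, marked by group: Lta4h and Alox5 against Mgst2 (top), Mgst2 against the mean of 11 secondary granule and neutrophil genes, and Alox5 against the mean of 8 mast cell genes (bottom). In GMP fl/p30, replicate 1 has the lowest Mgst2 (7.04) and the highest Alox5 (10.98), and replicate 3 the reverse (10.67 and 9.46).

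Between the mutant alleles, set against each other in GMPs, none of the 6 tested genes passed the test (0 called, 0 at an unadjusted p under 0.05, adjusted p = 1 for each). Their 95% intervals included 0 and were widest for Lta4h (-0.91 to 0.64) and Ptgs2 (-0.95 to 0.27). Over all genes 0.00502% were called. None of the 6 had arrays that did not overlap, as 4.67% of all genes had with p30 higher and 3.66% with p30 lower. The p30 minus BRM2 differences of the other 3 were 0.33 ± 0.35 for Alox5 (95% interval -0.41 to 1.07), 0.50 ± 0.20 for Lpcat2 (0.07 to 0.93) and 0.83 ± 0.72 for Mgst2 (-0.72 to 2.38), and their arrays overlapped. For Mgst2 the difference was 0.02 without GMP fl/p30 replicate 3 and 1.83 without replicate 1. For Alox5 it was -0.05 without replicate 1 and 0.71 without replicate 3.

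Along the step to GMP in fl/p30 mice, Alox5 was 4.42-fold higher in GMPs than in preGMs (log2 difference 2.14 ± 0.35). The SEs and calls of this step come from the fit of group means, which does not pair the animals. With the animal as a random block, 681 genes were called in place of 128, and none of the tested synthesis genes was among them. By animal, GMP minus preGM was 2.69, 2.41 and 1.33 for the animals of replicates 1, 2 and 3. For Lpcat2 the animals gave 0.55, 0.54 and 0.28, and for Mgst2 -0.85, 0.53 and 2.12, so that Alox5 and Lpcat2 were higher in GMPs of all 3 animals and Mgst2 in 2 of 3. Lta4h gave -0.38, 0.67 and 1.31, with the animals in the same order as for Mgst2. None of the 6 tested genes was called, against 0.642% of all genes, and 0 had an unadjusted p under 0.05. The arrays of 0 of the 6 lay wholly higher in GMPs and those of 1 (Pla2g4a) wholly lower, as for 9.44% and 7.72% of all genes. The Mgst2 mean difference of 0.60 ± 0.72 was -0.21 without GMP fl/p30 replicate 3 and 1.60 without replicate 1.

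In the controls, where stage and genotype cannot be told apart, Mgst2 was 5.04-fold higher in GMPs than in preGMs (log2 difference 2.33 ± 0.72) and Alox5 1.67-fold higher (0.74 ± 0.35). Lpcat2 differed by 0.36 ± 0.20 with overlapping arrays, and by 0.17 without GMP fl/+ replicate 3 and 0.54 without replicate 2. Lta4h was 1.11 ± 0.36 higher (adjusted p = 0.0639) and Pla2g4a 0.84 lower (-0.84 ± 0.26, adjusted p = 0.0534). Neither passed, although their arrays did not overlap. Of the 6 tested genes 0 were called, against 10.2% of all genes called, 4.19% higher and 6.02% lower, and 2 of the 6 had an unadjusted p under 0.05. The arrays did not overlap for 1 of the 6 with GMPs higher (Lta4h) and 2 lower (Pla2g4a and Hpgds), as for 21.1% and 12.9% of all genes. Without GMP fl/+ replicate 1 the Pla2g4a difference was -1.19 and passed (adjusted p = 0.00171), and without replicate 2 it was -0.45. Lta4h passed without GMP fl/p30 replicate 1 or 3 (adjusted p = 0.0163 and 0.0203), which only changes the shared spread, and with only the compared groups fitted (adjusted p = 0.00471). Pla2g4a passed with the filter on dim probe sets (adjusted p = 0.0467).

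The p30 difference in GMPs minus that in preGMs was 1.40 ± 0.49 for Alox5 (95% interval 0.35 to 2.45), 0.10 ± 0.28 for Lpcat2 (-0.51 to 0.71) and -1.73 ± 1.02 for Mgst2 (-3.92 to 0.46). For Mgst2 it was -0.73 without GMP fl/p30 replicate 1 and -2.54 without replicate 3. None of the 6 tested genes was called, against 0.00502% of all genes, and 0 had an unadjusted p under 0.05. For Hpgds it was 0.31 ± 0.24 (adjusted p = 0.568), with an interval of -0.20 to 0.83.

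Of 70 other genes of these pathways 66 were measured, 29 of them with a mean level below the array medians. In GMP fl/p30 against GMP fl/+, 2 rose, 1 fell and 63 did not pass, where 6.06% of all genes were called. An unadjusted p under 0.05 was reached by 21, and the median difference was -0.06 beside -0.04 over all genes. The share of all genes at an unadjusted p under 0.05 is not given here. No count at that threshold, for pathway genes, receptors or members, is therefore read as an excess. In GMP fl/BRM2, 1 rose and 65 did not pass, where 2.53% of all genes were called. Here 15 had an unadjusted p under 0.05, with a median of 0.00 beside -0.02. In preGM fl/p30, 0 passed (9 at an unadjusted p under 0.05), where 1.68% of all genes were called. The median there was 0.10 beside 0.03. The counts were also 0 between the alleles (3 at an unadjusted p under 0.05), along the step in fl/p30 mice (9) and for the difference between stages (10). Over all genes, 0.00502%, 0.642% and 0.00502% were called in these comparisons, in that order.

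Pafah1b3 encodes a catalytic subunit of the intracellular PAF acetylhydrolase, which breaks PAF down, and rose in both GMP mutants. It had 8.73, 9.0 and 8.33 in GMP fl/p30, 8.45, 8.86 and 8.60 in GMP fl/BRM2, and 7.92, 7.72 and 7.85 in GMP fl/+. No mutant array overlapped the controls. It was 1.81-fold higher in GMP fl/p30 (log2 difference 0.85 ± 0.17, adjusted p = 0.00694) and 1.75-fold higher in GMP fl/BRM2 (0.80 ± 0.17, adjusted p = 0.0186). The p30 call held without each of the 15 arrays and was lost when only the compared groups were fitted (adjusted p = 0.111). The BRM2 call was lost there too (adjusted p = 0.0678), and when replicate 2 or 3 of either of its groups was left out (highest adjusted p = 0.133).

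Abcc1, the exporter of leukotriene C4, rose in GMP fl/p30, with 7.96, 8.22 and 7.91 against 7.67, 7.61 and 7.45 in GMP fl/+, 1.37-fold (0.45 ± 0.12, adjusted p = 0.0352). It did not pass when replicate 2 or 3 of GMP fl/+, replicate 3 of GMP fl/BRM2, or replicate 1 or 2 of GMP fl/p30 was left out (highest adjusted p = 0.149), with an intensity trend (0.075), and with only the compared groups (0.235). Abcc4, which exports prostaglandins and leukotrienes, fell in GMP fl/p30, with 6.45, 7.44 and 8.04 against 8.70, 8.15 and 8.58 in GMP fl/+, 2.24-fold lower (-1.16 ± 0.29, adjusted p = 0.0311). GMP fl/p30 replicate 1 was the lowest array, as for Mgst2 and Lta4h. Abcc4 did not pass when replicate 3 of GMP fl/+ or replicate 1 or 2 of the mutant was left out (highest adjusted p = 0.097, difference -0.73 to -1.53 over the leave-outs), with array medians set equal (0.0568) and with only the compared groups (0.285).

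No receptor for these lipids passed the test in a mutant comparison (0 of 14 measured in each of the 3, with 4, 1 and 1 at an unadjusted p under 0.05 in GMP fl/p30, GMP fl/BRM2 and preGM fl/p30). The 6 other lipoxygenases measured all had mean levels below the array medians, and 0 passed in these comparisons (0 at an unadjusted p under 0.05 in each).

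Between the controls, 11 of the 66 passed, 7 higher and 4 lower in GMP fl/+ than in preGM +/+, where 10.2% of all genes were called. Among receptors, Ltb4r1, the high-affinity leukotriene B4 receptor, rose, with 8.42, 7.75 and 7.70 in GMP fl/+ against 6.94, 7.50 and 6.76 in preGM +/+ (0.89 ± 0.20, adjusted p = 0.0153). The prostacyclin receptor gene Ptgir rose by 0.53 (adjusted p = 0.0335). The cysteinyl leukotriene receptor gene Cysltr2 fell, with 5.07, 3.84 and 5.49 in GMP fl/+ against 6.25, 6.16 and 6.25 in preGM +/+ (-1.42 ± 0.34, adjusted p = 0.0209), and the prostaglandin E2 receptor gene Ptger3 fell by 0.84 (adjusted p = 0.0416). Cysltr2 thus lay below the array medians in GMP fl/+ and near them in preGM +/+. Ptgir was near or below them, with group means of 6.30 in GMP fl/+ and 5.77 in preGM +/+. Among enzymes, Ptgr1, which inactivates leukotriene B4 and prostaglandins, rose 2.23-fold (1.16 ± 0.32, adjusted p = 0.0366), and the acyltransferase gene Lpcat4 rose 1.73-fold (0.79 ± 0.21, adjusted p = 0.0296). Acsl4, which activates arachidonate, fell 1.96-fold (-0.97 ± 0.26, adjusted p = 0.031), and Pafah1b3 fell 1.59-fold (-0.67 ± 0.17, adjusted p = 0.0237).

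The other 3 called genes were Ptges, Pla2g3 and Pla2g5, named after their values were seen. Their group means lay below the array medians in both controls. Without preGM +/+ replicate 1 none of the 11 remained called (0 of 66), and without replicate 2 or 3 of that group 1 of 66 was called. Without GMP fl/+ replicate 1, 2 or 3 the counts were 17, 2 and 4. The 8 genes given with values reached adjusted p-values between 0.0661 (Ltb4r1) and 0.128 (Ptger3) in the leave-outs. With only the compared groups fitted, Acsl4 (adjusted p = 0.14), Ltb4r1 (0.101), Cysltr2 (0.0849) and Ptger3 (0.104) did not pass, and with array medians set equal Ptgr1 (0.0678) and Ptgir (0.0732) did not.

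**Figure D4:**
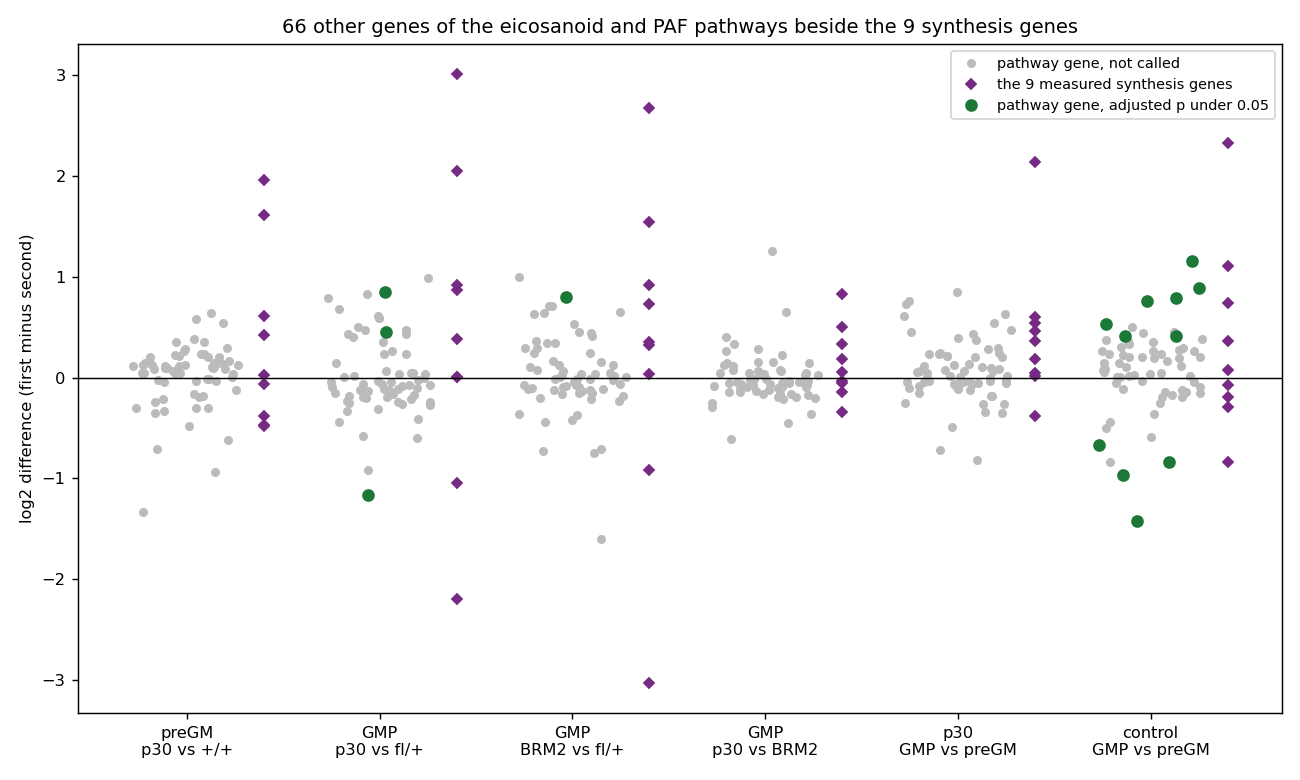
Log2 differences of the 66 other pathway genes (circles, green where the adjusted p was under 0.05) and of the 9 measured synthesis genes (diamonds) in 6 comparisons, each the first group on the axis label minus the second. The 3 mutant comparisons have 0, 3 and 1 green circles from left to right, and the control step has 11.

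Genes with the most similar pattern to Alox5, by Pearson correlation over the 15 arrays, were Cdh1 (E-cadherin, r = 0.975), Il6 (0.972), Cyp11a1 (0.971), Csrp3 (0.961) and Srxn1 (0.959), and the most opposite were Mei4 (-0.935) and Cd44 (-0.931). For Lpcat2 they were Scin (0.979), the phospholipid flippase gene Atp8b1 (0.977), Ffar2 (0.966), Lag3 (0.961) and St8sia6 (0.954), with Il6st (-0.955) and Irf8 (-0.947) opposite. For Mgst2 they were Jmjd6 (0.931), Lair1 (0.923), Ncf4 (0.913), a subunit of the phagocyte NADPH oxidase, Csf3r (0.908), the receptor of granulocyte colony-stimulating factor, and Ampd2 (0.908), with Cd55 (-0.905) and Mtss1 (-0.895) opposite. The arrays share their 5 groups, so these values have no p. Over deviations from the group means, the correlations of the most similar genes ran from 0.56 to 0.75 for Alox5, 0.42 to 0.80 for Lpcat2 and 0.86 to 0.96 for Mgst2.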

How the data were processed

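The authors deposited log2 expression values of 15 arrays, made with affy and RMA per the submitters' processing notes, with versions not given in the sources used here. Per the labels, 20 ng of RNA was amplified. The table held 34760 probe sets: 21640 with 1 gene symbol, 1321 with several and 11799 unnamed here. Of the first, 21553 matched the RefSeq gene table by Entrez ID, and 0 symbols changed. The 19937 genes were each read from the probe set with the highest mean (954 genes had several). There is no read depth on arrays, and their number limits the precision. No batch or scan date is given in the labels used here.

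The 5 group means were fitted over all arrays in limma 3.58.1 under R 4.3.3 (eBayes, no trend), with 10 residual and 4.24 prior degrees of freedom. Benjamini-Hochberg adjustment ran over all genes in each of 7 comparisons, and calls needed an adjusted p under 0.05. In the text, ± after a difference is its SE. The members, pathway and marker lists were chosen with earlier results of these data known. Named genes were the members, up to 3 called pathway genes each way in a comparison, called receptors, and for Alox5, Lpcat2 and Mgst2 the 5 genes most and 2 least alike. The fit was tested on simulated data with independent noise and the same spread of a gene on every array. That test does not cover the unequal spread of the groups or the shared animals. Alternatives were each array left out, array weights, an intensity trend, array medians set equal, a filter on dim probe sets, the mean of all probe sets of a gene, only the compared groups, and the animal as a block. Deviations of same-animal fl/p30 arrays from their group means correlated across genes at 0.334, 0.32 and 0.116, and those of different animals at -0.308 to 0.154, the highest being replicate 3 of the GMPs with replicate 2 of the preGMs. The groups are paired by the animal numbers in the titles.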

Additional observations from a re-analysis of the deposited data

How the results depend on the processing

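Of 1381 values of the 9 measured genes under alternatives (63 differences), 1349 stayed on their side of the threshold or moved by less than the spread. Of the rest, 10 lost a call, 21 gained one, 1 moved and 0 called values reversed. Differences that were not called changed sign in 35 cases (20 differences), which are counted among the 1349. The counts below are genes called, over all 19937 genes first and then over the 66 pathway genes, and the cause of each shift was not tested. For GMP fl/p30 against GMP fl/+ (1209 and 3), array weights gave 4063 and 21, only the compared groups 172 and 0, the filter on dim probe sets 5 pathway genes, and single arrays left out 537 to 3078 and 1 to 11. For GMP fl/BRM2 against GMP fl/+ (505 and 1), weights gave 2187 and 11, compared groups 131 and 0, and leave-outs 134 to 2218 and 0 to 10. For preGM fl/p30 against preGM +/+ (334 and 0), weights gave 1167 and 3, compared groups 1070 and 5, and leave-outs 101 to 471 and 0 to 2. For GMP fl/p30 against GMP fl/BRM2 (1 and 0), weights gave 283 and 2, equal medians 2 genes, compared groups 0 and leave-outs 0 to 12 and 0 to 0. For GMP fl/p30 against preGM fl/p30 (128 and 0), weights gave 1948 and 5, compared groups 29, and leave-outs 26 to 249 and 0 to 2. The replicate block of the animal gave 681 and 3 as a random effect and 71 genes as a fixed effect. For GMP fl/+ against preGM +/+ (2036 and 11), weights gave 4660 and 18, compared groups 746 and 4, equal medians 6 pathway genes, and leave-outs 636 to 4686 and 0 to 17. For the p30 effect in GMPs minus that in preGMs (1 and 0), weights gave 1991 and 6, equal medians 29, an intensity trend 2, compared groups 4, the random block 76, and leave-outs 0 to 1482 and 0 to 4. The highest leave-out counts of the comparisons with GMP fl/+ (3078, 2218, 4686 and 1482) came without GMP fl/+ replicate 1. No tested synthesis gene was called under the block beyond the calls reported.

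With array weights, Alox5ap, Lta4h and Pla2g4a passed in GMP fl/p30 (adjusted p = 0.0487, 0.022 and 0.000754), and so did Pla2g4a in GMP fl/BRM2 (0.00593) and Hpgds in preGM fl/p30 (0.0322). Between stages, Alox5ap passed in fl/p30 mice (0.0265), and Lta4h (0.017) and Pla2g4a (0.00855) in the controls. The weights ran from 0.305 (GMP fl/+ replicate 1) to 6.02 (GMP fl/p30 replicate 2). Hpgds and Ptgs2 fail the filter on dim probe sets and were not tested there. Low levels near or below the array medians limit what can be read of Hpgds, Ptgs2 and Ltc4s, and 3 arrays per group limit all differences. The same low levels limit the pathway genes Cysltr2, Ptgir, Ptges, Pla2g3 and Pla2g5.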
